A study of Mus musculus with 18 samples.

Results

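The genes of the vacuolar proton pump (V-ATPase), of the Ragulator and Rag GTPases, of the folliculin complex and of the MiT transcription factors were followed in liver RNA of Lipa-/- mice, of WT mice and of Lipa-/- mice treated with rAAV8. They were taken by symbol, as every gene whose symbol starts with Atp6v0 or Atp6v1 together with a list of accessory subunits and of Ragulator, Rag, folliculin, MiT and mTORC1 genes. This gave 46 of the 35441 genes in the count table, and 37 of them had more than 100 reads summed over the 18 mice and were tested among 14535 such genes. The tested genes were 9 of 10 V0 genes, 9 of 13 V1 genes, 2 of 2 accessory subunits, 5 of 5 Ragulator genes, 3 of 4 Rag genes, 3 of 3 genes of the folliculin complex, 3 of 3 MiT factors, and 3 of 3 genes of mTORC1 and its amino acid sensor. The 9 genes at or under the minimum were Atp6v0a4 (43.67 reads in all), Rragb (41 reads), Atp6v1b1, Atp6v1c2, Atp6v1e2, Atp6v1g3, the pseudogenes Atp6v0c-ps1 and Atp6v0c-ps2, and Atp6v1fnb, and the least abundant gene over it was Atp6v1g2 (670.4 reads).

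Each of the 6 groups held 3 male mice of a C57/BL6N background, sampled at 3 months or at 8 months as the labels give it, which the study counts as 12-weeks and 34-weeks after injection. The study injected its mice weeks after birth, so these times are not the ages of the mice. WT mice were untreated littermates. Lipa-/- mice were untreated and lacked exon 4 of Lipa, the gene of lysosomal acid lipase, which had been deleted with a Cre under the CMV promoter. The rAAV8-treated Lipa-/- mice carried the same deletion and had received rAAV8.hAAT.LIPA by tail vein, a viral vector with the human LIPA cDNA behind a promoter that is active in hepatocytes. For its longer follow-up the study chose the dose it calls middle. The study reports a lone untreated Lipa-/- mouse alive at its last time point, the others having been killed earlier at predefined endpoints. So the 3 sequenced ones cannot all have lived to 34-weeks, and which of them were killed earlier is not given in the sources used here. Bulk RNA from pieces of frozen liver was sequenced after selection of polyA RNA.

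As background, the V-ATPase is the pump that acidifies lysosomes. Its V0 sector is the proton channel in the membrane, and its V1 sector is the part on the cytosolic side that splits ATP. Ragulator holds the Rag GTPases on the lysosome beside the pump, the Rag GTPases recruit mTORC1 when amino acids are plentiful, and the folliculin complex sets the nucleotide state of RagC and RagD. mTORC1 at the lysosome phosphorylates the MiT factors TFEB and TFE3 and keeps them out of the nucleus. When they are released, they bind an E-box type element, called the CLEAR element, in the promoters of lysosomal genes, V-ATPase genes among them.

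Promoters of the genes were searched for 3 motifs on both strands, in RefSeq windows of 300 bases (250 before and 50 after a transcription start, GRCm38.p6), which were given for 30 of the 37 genes. The core of the CLEAR element, TCACGTGA, lay in 3 of the 30 genes (10%) against 1.12% of 27025 genes with a window. The E-box CACGTG, which is contained in that core, lay in 8 genes (26.7%, the same 3 included) against 8.09%, and TCATGTG, the M-box bound by MITF, lay in 3 (10%) against 4.31%. These are descriptions of letters in the windows, not binding sites. The stretches around the 3 CLEAR cores, around the M-box of Atp6v0c and around the E-boxes of Rragc and Fnip1 are shown 5′ to 3′ on the strand of the gene, with the motif in capitals, since these genes are followed through the comparisons.
Atp6v0d1 (chr8:105566049-105566078, minus strand): cctactgcggTCACGTGAgacgcggtgcgt
Atp6v0e (chr17:26676388-26676417, plus strand): agcgcgccgaTCACGTGAgcctctgttgac
Atp6v1a (chr16:44139344-44139431, minus strand): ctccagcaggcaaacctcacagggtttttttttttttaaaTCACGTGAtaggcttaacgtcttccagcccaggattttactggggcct
Atp6v0c (chr17:24169451-24169507, minus strand): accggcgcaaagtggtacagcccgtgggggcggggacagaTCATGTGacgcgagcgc
Rragc (chr4:123917281-123917366, plus strand): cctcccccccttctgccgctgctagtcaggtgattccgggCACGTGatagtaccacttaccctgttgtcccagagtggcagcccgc
Fnip1 (chr11:54438064-54438149, plus strand): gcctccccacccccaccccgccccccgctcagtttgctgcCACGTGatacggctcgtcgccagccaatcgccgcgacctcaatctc
The first base of the core lies 4 bases before the start in Atp6v0d1, 3 bases after it in Atp6v0e and 132 bases before it in Atp6v1a. The other E-boxes lay in Atp6v0b, Lamtor1 and Lamtor4, and the other M-boxes in Lamtor1 and Lamtor2. The genes Atp6v0a2, Atp6v0d2, Atp6v1b2, Atp6v1c1, Atp6v1g1, Atp6v1h and Lamtor3 had no window in the table.

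Expression is given per mouse as CPM, the reads of a gene brought to a common library total with edgeR's TMM factors. The deposited libraries held between 17527848 and 25833134 reads assigned to genes, so that 3 reads, the most that a count of 0 allows, correspond to between 0.0946 and 0.291 CPM, which covers counting error only. The labels held: Lipa was at 202 to 267 and 283 to 323 CPM in WT mice of the time points and at 16.7 to 33.4 and 18.2 to 19.7 CPM in untreated Lipa-/- mice and 31.0 to 37.04 and 29.1 to 31.2 CPM in treated ones. The human transgene was at 1577, 907 and 2631 CPM in treated mice 10, 11 and 12 at 12-weeks, at 1316, 2746 and 523 CPM in treated mice 9, 11 and 12 at 34-weeks and at 0.906 CPM or less in all other mice. All mice of 34-weeks share a study code, and those of 12-weeks share another except Lipa-/- mouse 5, which has its own, so a change with time and a change of code cannot be told apart. The rAAV8-treated mice of 12-weeks stood apart in the size of their transcripts. The median deviation of the shortest quartile of genes, by effective transcript length, exceeded that of the longest quartile by 0.95, 0.79 and 0.81 on the log2 scale in treated mice 10, 11 and 12, against 0.01, 0.37 and -0.37 in WT mice 1, 2 and 3, and WT mouse 1 of 34-weeks was at 0.67. Scaling by total counts instead of TMM moves the median log2 difference of all genes by more than 0.1, to 0.48 in place of 0.02 (Lipa-/- against WT, 12-weeks), 0.60 in place of -0.03 (34-weeks), -0.33 in place of 0.06 (rAAV8-treated against WT, 12-weeks), -1.05 in place of -0.19 (rAAV8-treated against untreated Lipa-/-, 12-weeks) and -0.51 in place of 0.03 (34-weeks). Differences below are relative to the TMM scale.

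The first question was which parts of the lysosomal pump and of its signalling partners differ between Lipa-/- and WT liver. In Lipa-/- mice, a set of pump subunits, the accessory subunits, RagD, RagC, the folliculin complex and all MiT factors were higher, while Ragulator was not shown to differ and Rraga, Rptor and Mtor were lower at one time or both. The largest differences were those of Atp6v0d2, an isoform of the V0 subunit d known from macrophages and osteoclasts (132-fold higher at 12-weeks and 75.4-fold at 34-weeks), and of Rragd, the gene of RagD (38.0-fold and 44.7-fold). Of the 37 genes, 19 passed an edgeR quasi-likelihood adjusted p under 0.05 upwards at 12-weeks and 18 at 34-weeks, where 22.9% and 23.8% of all tested genes did. Downwards, 2 passed at each time, against 16.2% and 23.5% of all genes. With an absolute log2 fold change over 1 in addition, the threshold of the study and what "called" means below, 14 genes were called higher at 12-weeks and 13 at 34-weeks (20.2% and 20.5% of all genes) and 0 lower (9.07% and 15.7%). The median log2 fold change of the 37 genes was 0.90 at 12-weeks, when that of all genes was 0.02, and 0.64 at 34-weeks, when that of all genes was -0.03. In 23 genes at each time, every Lipa-/- mouse was above every WT mouse, against 28.6% and 30.5% of all genes.

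These livers are bulk samples, so a change in the number of cells of a type and a change of RNA per cell cannot be told apart. General markers of macrophages moved with the pump genes, and those of resident Kupffer cells were mixed. The summed CPM of 10 macrophage markers was 142 to 339 in WT and 4080 to 7351 in Lipa-/- mice at 12-weeks, and 243 to 452 against 3090 to 6021 at 34-weeks, and all 10 rose at both times. All 7 markers of lipid-associated macrophages rose as well, with 120.2 to 191 summed CPM in WT and 3484 to 7122 in Lipa-/- mice at 12-weeks, and 95.9 to 151 against 4951 to 6238 at 34-weeks. Of 6 markers of osteoclast-type macrophages, which are known for Atp6v0d2 and Tcirg1, 3 were tested: Ctsk rose, with means of 0.745 CPM in WT and 163 CPM in Lipa-/- mice at 12-weeks and of 0.523 and 213 CPM at 34-weeks, Acp5 rose at 12-weeks and did not pass at 34-weeks (edgeR adjusted p = 0.00879 and 0.483), and Ocstamp did not pass (edgeR adjusted p = 0.0789 and 0.111). Dcstamp, Calcr and Oscar were at or under the minimum of reads. Of 6 markers of resident Kupffer cells, Timd4 fell at both times (-3.62 ± 0.86 and -3.84 ± 0.82 on the log2 scale), Clec4f and Folr2 fell at 34-weeks (-2.73 ± 1.07 and -1.89 ± 0.48), and Marco and Cd5l rose at 12-weeks. The summed CPM of the 6 overlapped between the groups (92.1 to 219 in WT and 70.4 to 381 in Lipa-/- mice at 12-weeks, and 155 to 314 against 52.8 to 334 at 34-weeks). Of 5 markers of sinusoidal endothelial cells, Clec4g (-2.17 ± 0.42 and -2.70 ± 0.43) and Kdr (-2.09 ± 0.24 and -1.38 ± 0.23) fell and Lyve1 rose at both times. Of 8 hepatocyte markers, 5 fell at 12-weeks and 7 at 34-weeks. Of the other lists, 9 of 9 neutrophil markers rose at 12-weeks and 7 at 34-weeks, 4 of 5 stellate cell markers rose and 1 fell at both times, and 2 of 4 cholangiocyte markers rose at 12-weeks and 4 at 34-weeks. Likewise, 4 of 5 tested T and NK cell markers rose at 12-weeks and 3 at 34-weeks. In addition, 1 of 4 B cell markers rose at 12-weeks and 1 fell at 34-weeks, and 1 of 4 erythroid markers, Alas2, fell at both times. The part of these shifts in the results below was not tested.

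**Figure D1:**
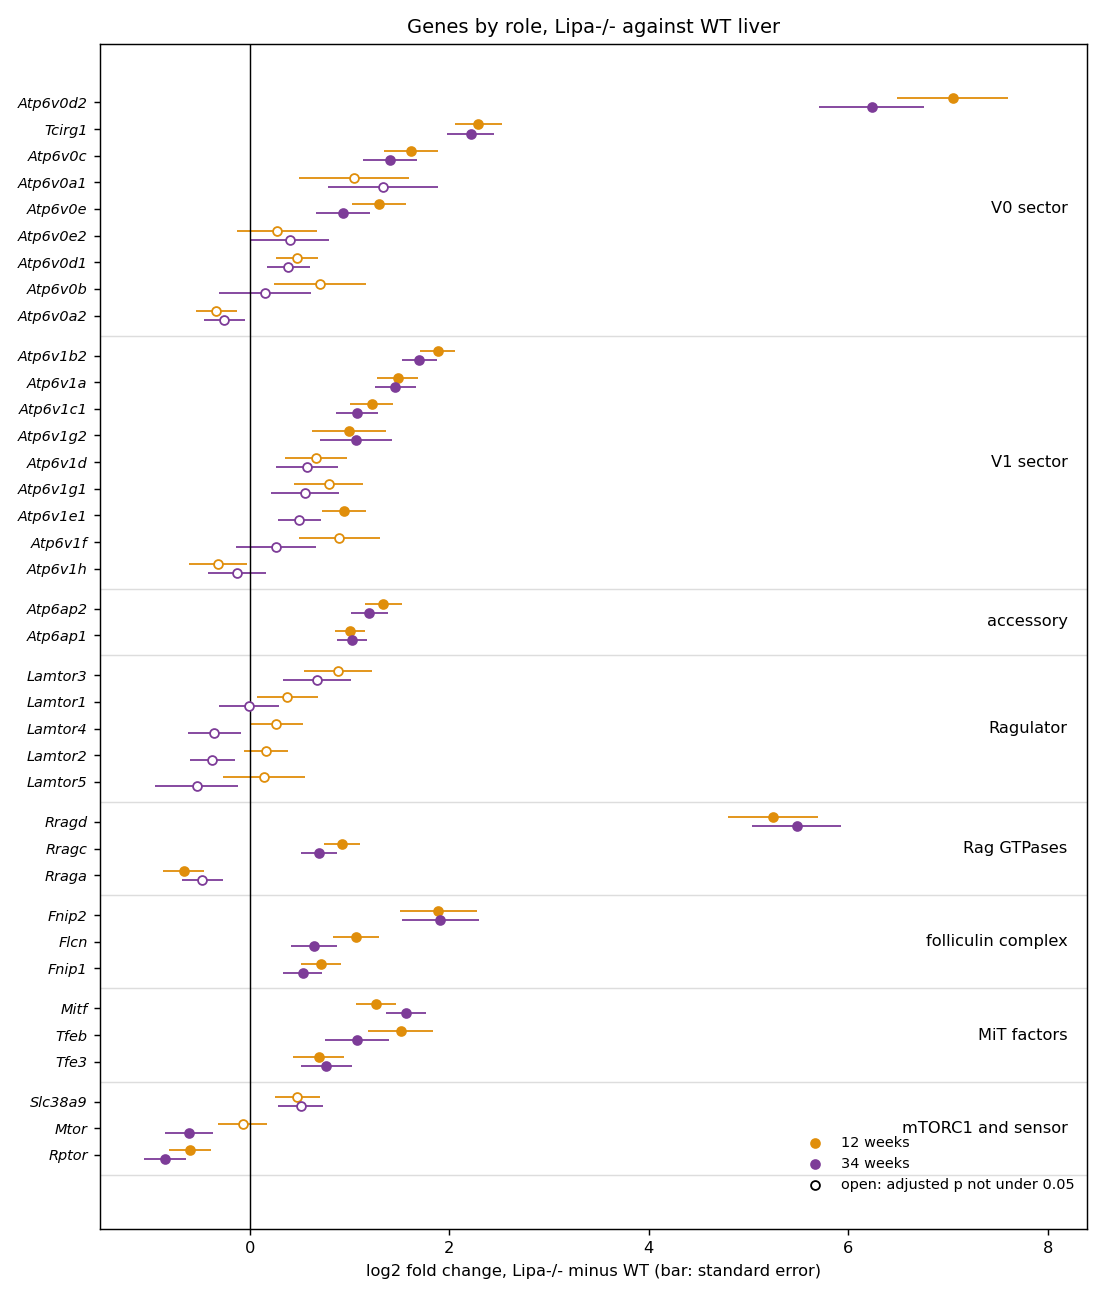
Log2 fold change of Lipa-/- against WT mice (x axis, bar: standard error of the edgeR fit, 3 mice a group) for the 37 genes, grouped by role, at 12-weeks (orange) and 34-weeks (purple). Open circles did not pass an adjusted p of 0.05. Atp6v0d2 and Rragd lie beyond 5, while the 5 Ragulator genes lie between -0.54 and 0.88.

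Subunit d of V0, the stalk that links both sectors, has the isoforms Atp6v0d1, made in most cells, and Atp6v0d2 (chr4:19876838-19922614 of GRCm39, minus strand). At 12-weeks, Atp6v0d2 was at 0.750, 0.718 and 1.15 CPM in WT mice 1, 2 and 3 and at 135, 141 and 72.9 CPM in Lipa-/- mice 5, 8 and 9. At 34-weeks it was at 0.885, 2.36 and 1.75 CPM in WT mice 1, 2 and 3 and at 147, 166 and 72.4 CPM in Lipa-/- mice 4, 5 and 6. The groups were far apart at both times, and Lipa-/- mouse 9 of 12-weeks and mouse 6 of 34-weeks were the lowest of the Lipa-/- mice. The log2 fold change was 7.05 ± 0.56 (standard error) at 12-weeks (edgeR adjusted p = 1.15e-07) and 6.24 ± 0.53 at 34-weeks (edgeR adjusted p = 1.98e-07), and it stayed between 5.96 and 7.30 whichever mouse was left out. Its paralog Atp6v0d1 was at 59.0, 80.7 and 60.4 CPM in WT and 75.9, 95.2 and 106 CPM in Lipa-/- mice at 12-weeks, and at 67.4, 53.2 and 57.8 against 73.8, 80.0 and 79.2 CPM at 34-weeks. WT mouse 2 of 12-weeks lay among the Lipa-/- mice, whereas at 34-weeks the groups did not overlap. On the TMM scale, the difference of Atp6v0d1 did not pass at either time (0.47 ± 0.21 with edgeR adjusted p = 0.0898, and 0.39 ± 0.21 with edgeR adjusted p = 0.148). With scaling by total counts it passed at both times (0.95 and 1.03). Once a trend with transcript length and GC content was removed, it passed at 34-weeks (0.43) and not at 12-weeks (0.21). Its promoter carries a CLEAR core close to the start.

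Subunit a of V0 forms the path of the protons, and its isoforms place the pump in different membranes. Tcirg1 (chr19:3946050-3957917, minus strand), the isoform known from osteoclasts and activated T cells, was at 32.2, 31.3 and 28.4 CPM in WT and 185, 135 and 129 CPM in Lipa-/- mice at 12-weeks. At 34-weeks it was at 29.4, 42.4 and 29.7 CPM in WT and 186, 165 and 119.6 CPM in Lipa-/- mice. Every Lipa-/- mouse was above every WT mouse, by 4.89-fold and 4.63-fold on average (2.29 ± 0.24, edgeR adjusted p = 1.55e-06, and 2.21 ± 0.24, adjusted p = 1.56e-06). Atp6v0a1 was at 30.1, 19.9 and 40.4 CPM in WT and 88.8, 61.2 and 36.1 CPM in Lipa-/- mice at 12-weeks, where Lipa-/- mouse 9 lay below WT mouse 3, and at 14.6, 41.1 and 44.0 against 90.9, 83.2 and 78.0 CPM at 34-weeks, without overlap. Its spread between mice was wide, and it did not pass on the TMM scale (1.04 ± 0.55 with edgeR adjusted p = 0.146, and 1.34 ± 0.55 with edgeR adjusted p = 0.0558). At 34-weeks, but not at 12-weeks, Atp6v0a1 passed with DESeq2 (1.39, DESeq2 adjusted p = 0.0271) and with total counts (1.92). It did not pass with the trend with length and GC content removed (1.04 at 34-weeks). Atp6v0a2 did not pass on the TMM scale at either time, with log2 fold changes of -0.34 and -0.26. With the trend with length and GC content removed, it passed downwards at both times (-0.55 and -0.63). It did not pass with total counts (0.13 and 0.34).

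The ring of V0 that turns as protons pass is built mainly of Atp6v0c, the most abundant V0 gene of WT liver per length, and of Atp6v0b. Atp6v0c was at 145, 203 and 143 CPM in WT and 483, 489.9 and 535 CPM in Lipa-/- mice at 12-weeks and at 151, 162 and 155 against 418, 415 and 406 CPM at 34-weeks. The 6 Lipa-/- mice were close to each other and all above the WT mice (1.62 ± 0.27, edgeR adjusted p = 0.000161, and 1.40 ± 0.27, adjusted p = 0.000380). Atp6v0c has processed pseudogenes that share its sequence, so its reads are uncertain to that extent, though the pseudogenes themselves received few reads. The ring subunit Atp6v0b was at 123, 152 and 70.8 CPM in WT and 145, 179.8 and 239 CPM in Lipa-/- mice at 12-weeks, and at 220.2, 75.3 and 73.6 against 139, 139.5 and 133 CPM at 34-weeks. The groups overlapped at both times, and WT mouse 1 of 34-weeks, which also had the length shift given above, was the highest of all these mice but Lipa-/- mouse 9. Of the small subunit e, Atp6v0e was at 45.1, 57.8 and 37.5 CPM in WT and 84.2, 111 and 149 CPM in Lipa-/- mice at 12-weeks, and at 64.1, 38.0 and 37.1 against 83.8, 94.3 and 87.9 CPM at 34-weeks. It rose at both times without overlap (1.29 ± 0.27, edgeR adjusted p = 0.00122, and 0.94 ± 0.27, adjusted p = 0.00880), and its promoter holds a CLEAR core. Atp6v0e2, at 1.19 to 2.08 CPM in WT and 1.24 to 2.43 CPM in Lipa-/- mice of 12-weeks, did not pass. In all, 4 of 9 V0 genes rose at each time on the TMM scale, Atp6v0d2, Tcirg1, Atp6v0c and Atp6v0e, and 0 fell.

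In the V1 sector, the catalytic head is made of subunits A and B. Atp6v1a, subunit A, was at 35.8, 40.7 and 38.3 CPM in WT and 88.4, 106 and 127 CPM in Lipa-/- mice at 12-weeks, and at 40.2, 38.8 and 40.6 against 119, 105 and 105 CPM at 34-weeks. Atp6v1b2, the subunit B of most tissues, was at 31.2, 37.2 and 33.7 CPM in WT and 105, 128 and 144 CPM in Lipa-/- mice at 12-weeks, and at 37.2, 36.8 and 36.4 against 142, 107 and 109 CPM at 34-weeks. Both had narrow ranges among WT mice, and every Lipa-/- mouse lay above all of them. The log2 fold changes were 1.48 ± 0.21 and 1.46 ± 0.21 for Atp6v1a (edgeR adjusted p = 2.91e-05 and 2.36e-05) and 1.88 ± 0.18 and 1.70 ± 0.18 for Atp6v1b2 (edgeR adjusted p = 5.68e-07 and 1.12e-06). Atp6v1c1, subunit C, which joins V1 to V0 as the pump assembles, was at 30.01, 33.4 and 26.0 CPM in WT and 52.1, 67.1 and 89.0 CPM in Lipa-/- mice at 12-weeks, and at 33.0, 26.8 and 33.4 against 75.5, 54.4 and 65.6 CPM at 34-weeks. It rose without overlap, by 1.22 ± 0.21 and 1.07 ± 0.21 on the log2 scale (edgeR adjusted p = 0.000242 and 0.000529).

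On the TMM scale, the stalk subunits of V1 moved less. Atp6v1e1, subunit E, rose at 12-weeks (0.94 ± 0.22, edgeR adjusted p = 0.00252) and was at 0.50 ± 0.22 at 34-weeks (edgeR adjusted p = 0.0691). Atp6v1f, the most abundant V1 gene per length, was at 71.2, 94.5 and 52.4 CPM in WT and 118, 135 and 153 CPM in Lipa-/- mice at 12-weeks, and at 144, 47.0 and 49.3 against 85.1, 108 and 94.1 CPM at 34-weeks. The groups did not overlap at 12-weeks, but at 34-weeks WT mouse 1 was above all Lipa-/- mice, and the difference did not pass (0.90 ± 0.40, edgeR adjusted p = 0.0884, and 0.26 ± 0.40, adjusted p = 0.622). Atp6v1g1, of subunit G, was at 104, 121 and 72.1 CPM in WT and 154, 171 and 189 CPM in Lipa-/- mice at 12-weeks, and at 149.7, 53.4 and 59.8 against 119, 137 and 129 CPM at 34-weeks. Its values have the same form as those of Atp6v1f, with WT mouse 1 of 34-weeks far above the other WT mice of that time. The paralog Atp6v1g2, known from neurons, was at 0.861 to 1.56 CPM in all WT mice and 1.29 to 2.91 CPM in all Lipa-/- mice, and within each time point the groups did not overlap. It passed at both times (0.99 ± 0.37, edgeR adjusted p = 0.0423, and 1.06 ± 0.36, adjusted p = 0.0229). These calls rested on single mice, since Atp6v1g2 passed in only 1 of 6 fits that left out a mouse at 12-weeks (the fit without Lipa-/- mouse 9, with 0.62 to 1.23 over the 6) and in 2 of 6 at 34-weeks (those without WT mouse 3 or Lipa-/- mouse 5, with 0.90 to 1.32). Atp6v1d and Atp6v1h, of subunits D and H, did not pass (0.66 and 0.57 for the former, -0.32 and -0.13 for the latter). At 34-weeks the median log2 fold change was -0.29 in the shortest quartile of genes by effective length and 0.17 in the longest. With the trend with length and GC content removed, Atp6v1e1 (0.93 and 0.89) and Atp6v1g1 (0.79 and 1.08) passed at both times. Atp6v1d (0.84 and 1.09) and Atp6v1g2 (0.81 and 1.21) passed at 34-weeks only, and Atp6v1f (0.46 and 0.40) and Atp6v1h (-0.07 and 0.39) did not pass.

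The accessory subunits, both on the X chromosome, help the pump assemble and travel. Atp6ap1 was at 54.3, 66.1 and 57.0 CPM in WT and 112, 122 and 122 CPM in Lipa-/- mice at 12-weeks and at 54.6, 64.1 and 55.4 against 118, 127 and 108 CPM at 34-weeks. Atp6ap2, also known as the prorenin receptor, was at 27.3, 31.9 and 26.4 CPM in WT and 57.5, 79.5 and 79.4 CPM in Lipa-/- mice at 12-weeks, and at 35.1, 31.0 and 34.6 against 80.8, 79.9 and 70.5 CPM at 34-weeks. Both genes had no overlap between the groups at either time, with mean folds of 2.00 and 2.03 for Atp6ap1 and 2.53 and 2.29 for Atp6ap2. The log2 fold changes were 1.00 ± 0.15 and 1.02 ± 0.15 for Atp6ap1 (edgeR adjusted p = 6.81e-05 and 4.04e-05) and 1.34 ± 0.19 and 1.20 ± 0.19 for Atp6ap2 (edgeR adjusted p = 3.03e-05 and 5.86e-05). Taken with V0 and V1, 11 of the 20 genes of the pump and its accessory subunits rose at 12-weeks and 10 at 34-weeks, and 0 fell, on the TMM scale. Atp6v0a2 passed downwards at both times once the trend with length and GC content was removed.

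Ragulator, the scaffold of 5 small proteins that anchors the Rag GTPases, had smaller differences, none of which passed on the TMM scale. Of its 5 genes, 0 passed in either direction at 12-weeks (1, Lamtor3, at an unadjusted p under 0.05, and 1 with DESeq2) and 0 at 34-weeks (0 unadjusted and 0 with DESeq2). Their log2 fold changes lay between 0.14 and 0.88 at 12-weeks and between -0.54 and 0.67 at 34-weeks. Lamtor2, the most abundant of them per length, was at 64.3, 73.1 and 65.0 CPM in WT and 82.2, 73.9 and 69.9 CPM in Lipa-/- mice at 12-weeks, and at 80.8, 60.4 and 61.5 against 40.3, 59.2 and 56.5 CPM at 34-weeks. The groups overlapped at 12-weeks, and at 34-weeks every Lipa-/- mouse was below every WT mouse with a difference of -0.38 ± 0.22 (edgeR adjusted p = 0.177). Lamtor3 was at 18.8, 25.3 and 15.5 CPM in WT and 28.1, 36.8 and 44.9 CPM in Lipa-/- mice at 12-weeks, and at 23.8, 13.9 and 15.1 against 30.1, 26.5 and 27.2 CPM at 34-weeks. It was higher in every Lipa-/- mouse and did not pass (0.88 ± 0.34, edgeR adjusted p = 0.0505, and 0.67 ± 0.34, adjusted p = 0.117). Lamtor5 was at 35.1, 43.2 and 26.9 CPM in WT and 27.0, 40.9 and 48.0 CPM in Lipa-/- mice at 12-weeks, and at 67.0, 21.9 and 21.6 against 23.4, 25.6 and 27.1 CPM at 34-weeks, where WT mouse 1 was again far above the other mice. These calls depend on the scaling. With total counts 4 of the 5 passed upwards at 12-weeks (Lamtor1, Lamtor2, Lamtor3 and Lamtor4, at 0.86, 0.63, 1.37 and 0.75) and 2 at 34-weeks (Lamtor1 at 0.67 and Lamtor3 at 1.35). The negative values of 34-weeks became positive, with Lamtor2 at 0.26, Lamtor4 at 0.31 and Lamtor5 at 0.19. After the trend with length and GC content was removed, Lamtor3 passed upwards at both times (0.89 and 1.15) and Lamtor2 downwards at 34-weeks (-0.51). The summed TPM of the 5 genes, a scale that like total counts fixes the sum of each mouse, was 332 to 373 in WT and 519.6 to 663 in Lipa-/- mice at 12-weeks, and 372 to 420.2 against 533 to 556 at 34-weeks. That of the 20 pump genes was 764 to 959 in WT and 2289 to 3004 in Lipa-/- mice at 12-weeks, and 902 to 999 against 2517 to 3438 at 34-weeks. Both sums were apart between the groups, and whether Ragulator and the pump differed from each other was not tested.

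Among the Rag GTPases, which work as pairs of RagA or RagB with RagC or RagD, Rragd (chr4:32982984-33025899, plus strand) stood out. At 12-weeks it was at 0.589, 1.39 and 0.785 CPM in WT and 29.8, 36.4 and 40.1 CPM in Lipa-/- mice, and at 34-weeks at 1.00, 1.14 and 1.60 against 54.7, 51.2 and 63.6 CPM. The Lipa-/- mice of 34-weeks were all above those of 12-weeks, but the change of the difference from WT mice between the time points did not pass. The log2 fold change was 5.25 ± 0.45 at 12-weeks (edgeR adjusted p = 2.81e-07) and 5.48 ± 0.45 at 34-weeks (edgeR adjusted p = 1.53e-07), with 5.01 to 5.70 over the fits that left out a mouse. Rragc rose by 0.92 ± 0.18 and 0.69 ± 0.18 (edgeR adjusted p = 0.000790 and 0.00501). Rraga, the most abundant Rag gene of WT liver per length, was at 46.5, 46.7 and 38.4 CPM in WT and 18.8, 30.2 and 34.1 CPM in Lipa-/- mice at 12-weeks, and at 38.8, 40.6 and 41.1 against 27.0, 27.7 and 31.9 CPM at 34-weeks. Every Lipa-/- mouse was below every WT mouse, and the fall passed at 12-weeks (-0.66 ± 0.21, edgeR adjusted p = 0.0170) but not at 34-weeks (-0.48 ± 0.21, adjusted p = 0.0661). At 12-weeks Rraga passed in 3 of the 6 fits that left out a mouse, not in those without WT mouse 1, WT mouse 2 or Lipa-/- mouse 5 (-0.84 to -0.45 over the 6). It did not pass with scaling by total counts, under which it was at -0.19 at 12-weeks and at 0.15 at 34-weeks.

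The folliculin complex acts on RagC and RagD, and its members rose. Flcn, folliculin itself, was at 14.5, 21.7 and 17.9 CPM in WT and 35.6, 40.3 and 37.1 CPM in Lipa-/- mice at 12-weeks, and at 18.6, 15.8 and 25.1 against 33.9, 30.4 and 28.5 CPM at 34-weeks. Fnip2, which binds folliculin, was at 11.4, 8.61 and 14.8 CPM in WT and 45.2, 43.7 and 40.1 CPM in Lipa-/- mice at 12-weeks, and at 8.83, 16.6 and 24.9 against 77.8, 63.4 and 48.5 CPM at 34-weeks. The groups did not overlap for either gene at either time, and the gap was wider for Fnip2. The log2 fold changes were 1.89 ± 0.39 and 1.91 ± 0.38 for Fnip2 (edgeR adjusted p = 0.000973 and 0.000617) and 1.06 ± 0.23 and 0.64 ± 0.23 for Flcn (edgeR adjusted p = 0.00178 and 0.0315). The other partner, Fnip1, rose by 0.71 ± 0.20 and 0.53 ± 0.20 (edgeR adjusted p = 0.00864 and 0.0364), with overlap at 34-weeks. At 34-weeks, Flcn and Fnip1 each passed in 2 of the 6 fits that left out a mouse: Flcn without WT mouse 3 or Lipa-/- mouse 6 (0.50 to 0.85 over the 6), and Fnip1 without WT mouse 1 or Lipa-/- mouse 6 (0.37 to 0.71). With the trend with length and GC content removed, Flcn no longer passed at 34-weeks (0.21).

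All MiT factors rose in Lipa-/- mice. Tfeb was at 6.22, 6.12 and 7.43 CPM in WT and 24.2, 17.8 and 14.4 CPM in Lipa-/- mice at 12-weeks, and at 5.78, 8.35 and 6.58 against 14.8, 16.2 and 12.8 CPM at 34-weeks. Mitf, best known from pigment cells and osteoclasts, was at 3.54, 3.59 and 4.19 CPM in WT and 9.37, 8.82 and 8.97 CPM in Lipa-/- mice at 12-weeks, and at 3.78, 3.63 and 3.54 against 12.4, 12.1 and 7.94 CPM at 34-weeks. Both were higher in each Lipa-/- mouse than in any WT mouse of the same time. Tfe3, the most abundant of the family in WT liver per length, was at 14.1, 15.8 and 17.7 CPM in WT and 30.9, 27.1 and 18.9 CPM in Lipa-/- mice at 12-weeks, and at 10.4, 21.0 and 20.6 against 27.1, 34.7 and 26.8 CPM at 34-weeks. Its groups did not overlap but nearly met at 12-weeks. The log2 fold changes were 1.51 ± 0.33 and 1.08 ± 0.32 for Tfeb (edgeR adjusted p = 0.00154 and 0.0115), 1.26 ± 0.20 and 1.57 ± 0.20 for Mitf (adjusted p = 0.000110 and 9.87e-06), and 0.69 ± 0.26 and 0.76 ± 0.26 for Tfe3 (adjusted p = 0.0424 and 0.0214). For Tfe3, the call of 12-weeks held only without Lipa-/- mouse 9 among the 6 fits that left out a mouse (0.53 to 0.87), that of 34-weeks was lost without WT mouse 1 or Lipa-/- mouse 5 (0.51 to 0.93), and both were lost once a trend with transcript length and GC content was removed (0.19 and 0.33).

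The kinase that restrains these factors and its scaffold were not among the genes that rose. Mtor was at 21.6, 17.1 and 29.2 CPM in WT and 24.7, 22.2 and 17.6 CPM in Lipa-/- mice at 12-weeks, and at 26.6, 36.2 and 44.1 against 23.0, 24.1 and 22.9 CPM at 34-weeks. The groups overlapped at 12-weeks (-0.07 ± 0.24) and did not at 34-weeks, where Mtor passed narrowly (-0.61 ± 0.24, edgeR adjusted p = 0.0481), with DESeq2 adjusted p = 0.0539, and passed only without WT mouse 1 among the 6 fits that left out a mouse (-0.78 to -0.43). Rptor, the scaffold of mTORC1 that the Rag GTPases bind, was 16.3 to 19.8 CPM in all Lipa-/- mice and 22.9 to 36.6 CPM in all WT mice. It fell at both times, with log2 fold changes of -0.60 ± 0.21 at 12-weeks (edgeR adjusted p = 0.0316) and -0.85 ± 0.21 at 34-weeks (adjusted p = 0.00336). The call of 12-weeks was lost without WT mouse 3, Lipa-/- mouse 9 or Lipa-/- mouse 5 (-0.73 to -0.40), and neither gene passed with scaling by total counts, under which 29 of the 37 genes rose at 12-weeks and 28 at 34-weeks and 0 fell. With the trend with length and GC content removed, both were further below WT mice, with Mtor at -0.46 and -1.19 and Rptor at -1.02 and -1.60, and all of these passed. Slc38a9, the arginine sensor of the lysosome, did not pass in edgeR on the TMM scale (0.48 and 0.51), though its groups did not overlap at 34-weeks. It passed with DESeq2 at 34-weeks only (DESeq2 adjusted p = 0.0327) and with total counts at both times (0.94 and 1.16). It did not pass with the trend removed (0.41 and 0.28).

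The differences from WT mice were alike at both time points as far as could be shown: the interaction passed for 0 of the 37 genes (0 at an unadjusted p under 0.05, and 0 with DESeq2), where 0.0619% of all genes passed.

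**Figure D2:**
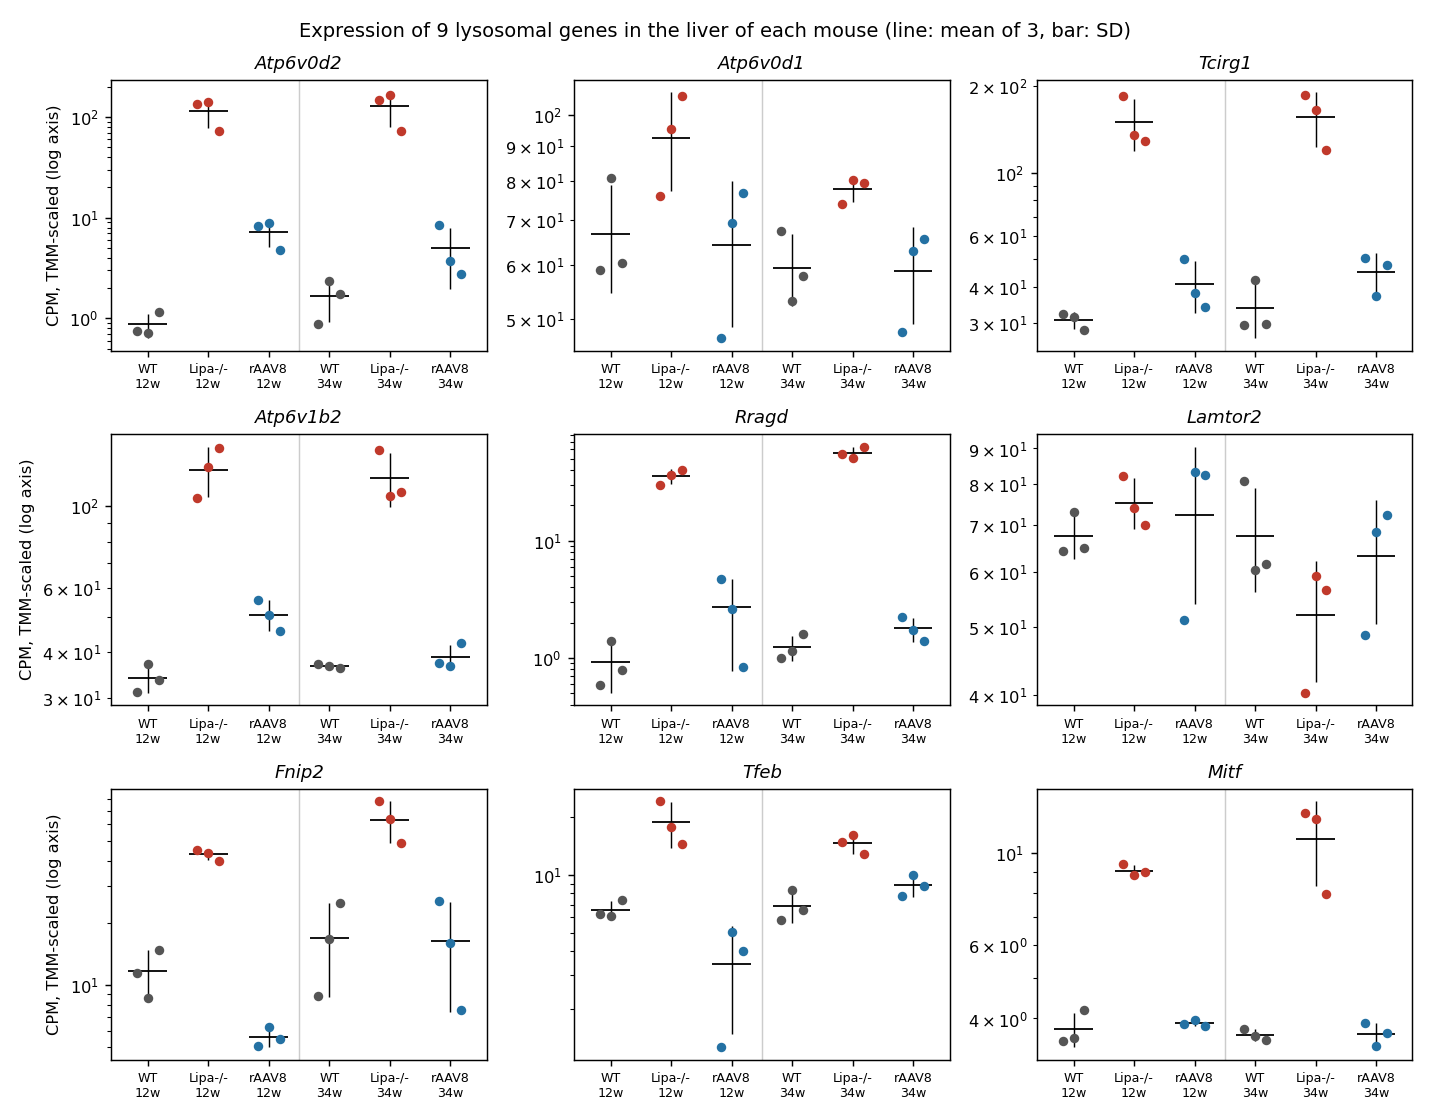
Expression of 9 of the genes in each mouse (TMM-scaled CPM, log axis), with WT mice in grey, Lipa-/- mice in red and rAAV8-treated Lipa-/- mice in blue, 12-weeks left and 34-weeks right of the line in each panel, and the mean of 3 mice and its SD. The Lipa-/- mice lie above the WT mice in the panels of Atp6v0d2, Tcirg1, Atp6v1b2, Rragd, Fnip2, Tfeb and Mitf, and the treated mice of 34-weeks lie near the WT mice, except for Atp6v0d2 with 2.76 to 8.41 CPM.

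The next question was how the make-up of the pump and its partners shifted, that is which paralog supplies the transcript. For this, the authors' TPM values, which are corrected for transcript length, were summed over the paralogs of a subunit within each mouse, and each gene's share of that sum was taken. Atp6v0d2 supplied 0.760, 0.531 and 1.14% of subunit d in WT mice of 12-weeks and 51.7, 47.0 and 29.2% in Lipa-/- mice. At 34-weeks it supplied 0.785, 2.62 and 1.80% in WT and 54.7, 55.5 and 35.6% in Lipa-/- mice. In 3 of the 6 Lipa-/- mice Atp6v0d2 lay above 50% and so exceeded Atp6v0d1, and Lipa-/- mouse 9 of 12-weeks and mouse 6 of 34-weeks were again the lowest. By level, Atp6v0d2 moved from place 36 of the 37 genes in WT mice of 34-weeks (mean 0.783 TPM) to place 12 in Lipa-/- mice (90.6 TPM, next to Atp6v0d1 with 89.2 TPM, a neighbour it did not differ from beyond the SDs of 39.98 and 11.0 TPM). In WT mice of 34-weeks the order of TPM was led by Atp6v0c (171 ± 46.5, SD), Lamtor2 (156 ± 16.3), Atp6v1f (152 ± 59.6) and Atp6v0b (149 ± 57.5), whose means lie within each other's spread, and it ended with Mitf (0.808), Atp6v0d2 and Rragd (0.297).

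Tcirg1 already had the largest mean share of subunit a in WT mice, with 56.2% ± 11.3 (SD) at 12-weeks and 58.1% ± 11.8 at 34-weeks. The lowest WT mice were at 45.1% and 45.9%. In CPM, which is not corrected for length, the WT values of Tcirg1 and Atp6v0a1 given above overlapped. The share of Tcirg1 reached 83.4% ± 1.15 and 79.2% ± 4.69 in Lipa-/- mice. The shares of Atp6v0a1 (28.4% ± 9.55 to 13.5% ± 2.07 at 12-weeks) and Atp6v0a2 (15.3% ± 2.18 to 3.10% ± 1.02) were lower, as they must be in part since the shares of a family add up. RagD supplied 0.776, 1.82 and 1.03% of the RagC and RagD transcripts in WT mice and 23.1, 22.0 and 18.9% in Lipa-/- mice at 12-weeks, and 1.08, 1.63 and 2.04% against 29.1, 30.1 and 31.6% at 34-weeks. RagC stayed the major form in every mouse. Fnip2 supplied 32.3% ± 4.33 of the Fnip transcripts in WT and 51.7% ± 2.37 in Lipa-/- mice at 12-weeks, and 38.3% ± 16.6 against 60.6% ± 4.98 at 34-weeks. In the MiT family, the share of Tfeb was 37.1% ± 1.64 in WT and 51.5% ± 3.39 in Lipa-/- mice at 12-weeks, and 34.5% ± 7.29 against 42.8% ± 1.95 at 34-weeks. That of Tfe3 was 54.3% ± 1.81 against 39.96% ± 3.47 and 57.8% ± 9.06 against 47.1% ± 3.80, and Mitf stayed between 7.70% and 10.2% on average.

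With 3 mice against 3 no exact test can fall below p = 0.1, so the shares were compared over both time points, permuting Lipa-/- and WT labels within each time (400 arrangements, two-sided, smallest p 0.005, 15 shares tested and p not adjusted). The mean share in Lipa-/- mice was higher by 44.3 percentage points for Atp6v0d2, 24.4 for Rragd, 24.1 for Tcirg1 and 20.8 for Fnip2, and lower by 11.4 for Atp6v0a2, as a difference of -11.4 (exact permutation p = 0.005 for each, the smallest possible). It was higher by 11.3 points for Tfeb and differed by -12.6 points for Tfe3 (exact permutation p = 0.01 each), and by -12.6 points for Atp6v0a1 (exact p = 0.02). The share of Mitf differed by 1.25 points (exact p = 0.26). With CPM in place of TPM, which gives long transcripts more weight, the difference of Rragd was 30.8 points at 12-weeks and 42.5 points at 34-weeks, against 20.1 and 28.7 points with TPM.

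**Figure D3:**
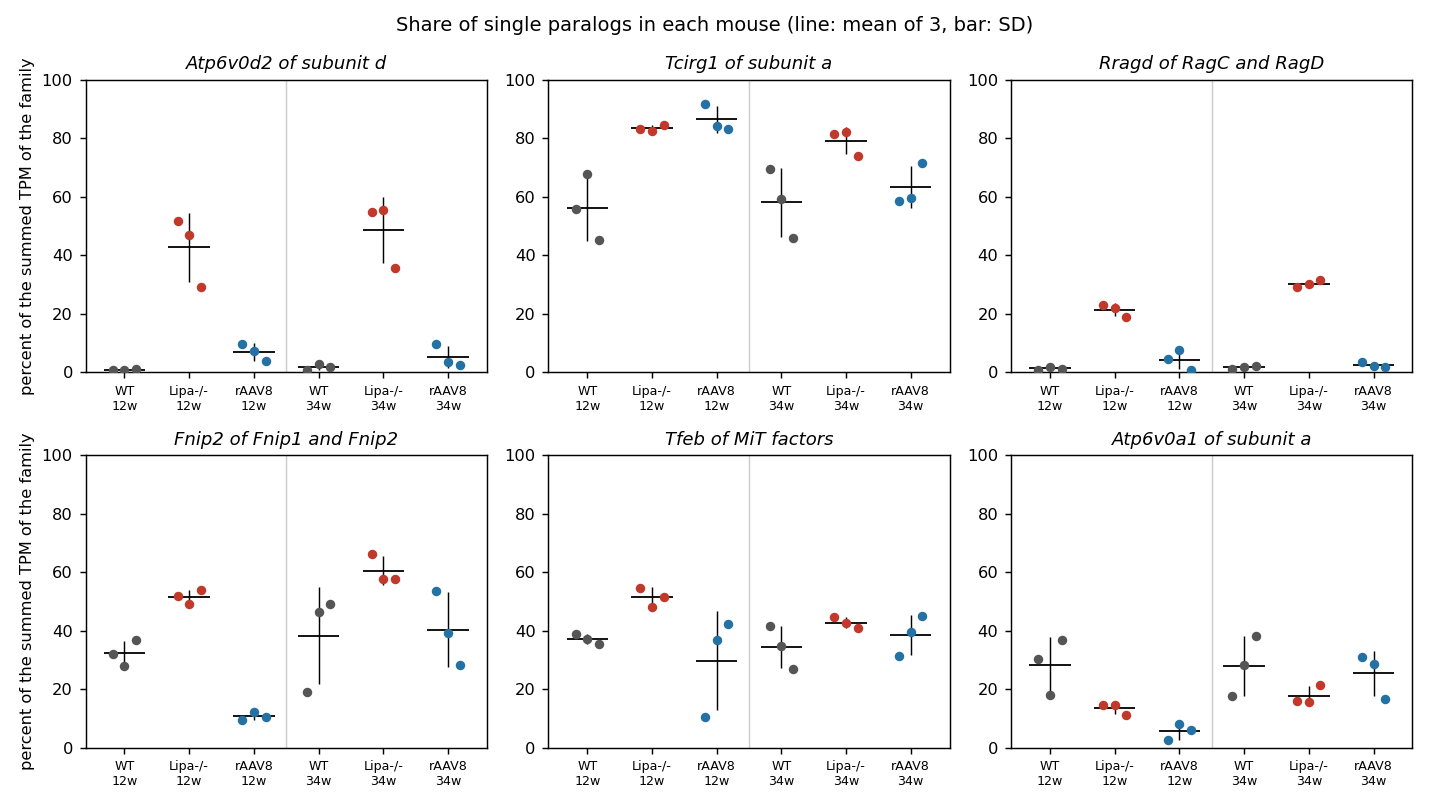
Share of a paralog in the summed TPM of its family in each mouse (percent, 0 to 100), with the mean of 3 mice and its SD, for Atp6v0d2, Tcirg1, Rragd, Fnip2, Tfeb and Atp6v0a1. Atp6v0d2 lies under 2.63% in WT mice and between 29.2% and 55.5% in Lipa-/- mice.

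The following question was whether the genes were back at WT levels after rAAV8 treatment. At 12-weeks they were not uniformly so. Against WT mice, 16 of the 37 genes passed upwards (19.4% of all genes) and 5 downwards (17.5%), and 9 were called higher (13.6%) and 2 lower (12.0%). The median of the 37 log2 fold changes was 0.36, and that of all genes 0.06. The genes called higher were Atp6v0d2, Atp6v0b, Atp6v1f, Lamtor5, Rragd, Atp6v1g1, Lamtor3, Atp6v0e2 and Atp6v0e, and those called lower were Atp6v0a1 and Fnip2. With scaling by total counts, 9 genes passed upwards and 7 downwards. These counts rested on single mice: without WT mouse 1, 9 genes passed upwards and 2 downwards, without WT mouse 3, 6 and 1, and without treated mouse 10, 6 and 2, and in both of the latter fits 4 genes were called higher and 1 lower.

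Length moved with this comparison. In the shortest quartile of genes, up to 1322 bases of effective length, the median log2 fold change was 0.71, and it was 0.11, -0.17 and -0.36 in the quartiles of longer genes. Of the 9 genes called higher, 7 lie in the shortest quartile, as do 14 of the 37 genes, and the exceptions are Atp6v0d2 and Rragd, while both genes called lower are longer. After the trend with length and GC content was removed, a fit added after the data were seen, 4 were called higher, namely Atp6v0d2 (2.74), Rragd (1.80), Atp6v0b (1.75) and Atp6v1f (1.03), and 2 lower, Atp6v0a1 (-2.06) and Atp6v1d (-1.62). In that fit 15 of the 37 genes passed upwards and 4 downwards. Tcirg1 (0.74), Flcn (0.73), Mtor (0.77) and Rptor (0.77) newly passed upwards, and Lamtor2 (-0.69) and Rraga (-0.71) downwards. What part length has in the remaining differences was not tested.

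**Figure D4:**
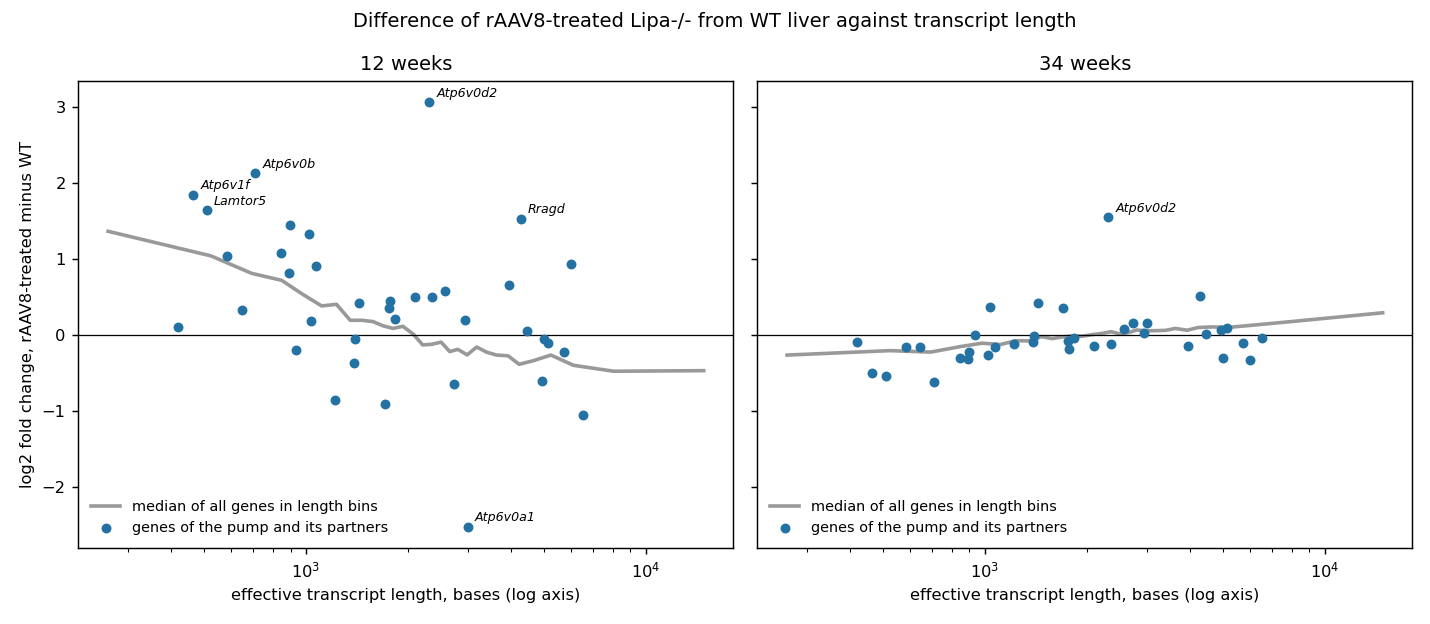
Log2 fold change of rAAV8-treated Lipa-/- against WT mice for the 37 genes (points) against effective transcript length in bases (log axis), at 12-weeks and 34-weeks, with the median of all genes in bins of length (grey line). At 12-weeks the grey line falls with length and short genes such as Atp6v1f (1.85) and Lamtor5 (1.64) lie near or above it, whereas Atp6v0d2 (3.06) and Rragd (1.53) lie far above it.

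Atp6v0d2 was at 8.36, 8.80 and 4.75 CPM in treated mice 10, 11 and 12 at 12-weeks, against 0.718 to 1.15 CPM in WT and 72.9 to 141 CPM in Lipa-/- mice. The treated mice lay between the other groups without overlap with either. The log2 fold change was 3.06 ± 0.50 against WT (edgeR adjusted p = 0.00194) and -3.99 ± 0.47 against Lipa-/- mice (edgeR adjusted p = 8.45e-06). Rragd was at 4.76, 2.61 and 0.844 CPM in the same mice, and treated mouse 12 lay among the WT mice (0.589 to 1.39 CPM). Its difference from WT was 1.53 ± 0.45 (edgeR adjusted p = 0.0161) and did not pass without WT mouse 1, WT mouse 3 or treated mouse 10 (0.86 to 1.96). Tcirg1, at 50.1, 38.1 and 34.1 CPM, lay above the WT mice and did not pass (0.41 ± 0.23, edgeR adjusted p = 0.160), but passed with the trend removed (0.74).

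Atp6v0a1 was the gene furthest below WT. It was at 0.680, 6.41 and 8.28 CPM in treated mice 10, 11 and 12, and WT mice had 19.9 to 40.4 CPM and Lipa-/- mice 36.1 to 88.8 CPM. All treated mice were below all others, mouse 10 most, with a log2 fold change of -2.53 ± 0.59 against WT (edgeR adjusted p = 0.00689) that held with each mouse left out (-3.08 to -2.11). Atp6v0b went the other way, at 856, 332 and 325 CPM against 70.8 to 152 CPM in WT mice, again with mouse 10 as the extreme (2.13 ± 0.48, edgeR adjusted p = 0.00584, and 1.43 to 2.38 with a mouse left out). Fnip2 was at 5.05, 6.25 and 5.44 CPM, below all WT mice of 12-weeks (8.61 to 14.8 CPM), and was called lower (-1.05 ± 0.39, edgeR adjusted p = 0.0454). That call held in 1 of 6 fits that left out a mouse, the one without WT mouse 2 (-1.23 to -0.84 over the 6), and was lost with the trend removed (-0.39). Tfeb was at 1.26, 5.05 and 3.99 CPM, below WT mice at 6.12 to 7.43 CPM and with mouse 10 lowest (-0.91 ± 0.34, edgeR adjusted p = 0.0446), and passed in 2 of 6 fits that left out a mouse, those without treated mouse 11 or 12 (-1.30 to -0.61), and not with the trend removed (-0.25). Mitf, at 3.89, 3.97 and 3.83 CPM, lay within the WT range.

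Some of the short subunits were high in all treated mice of 12-weeks, and others of the shortest quartile were not (Atp6v1d at -0.85, Atp6v0c at -0.21 and Atp6v1g2 at 0.18). Atp6v1f was at 373, 214 and 197 CPM, Atp6v1g1 at 320.3, 272 and 219.8 CPM, and Atp6v0e at 115, 88.3 and 84.5 CPM. None of the treated mice overlapped with WT mice in these genes, and treated mouse 10 was highest in each (1.85 ± 0.41, 1.45 ± 0.35 and 1.03 ± 0.27, with edgeR adjusted p = 0.00559, 0.00773 and 0.0102). In Ragulator, Lamtor5 was at 169, 79.7 and 80.4 CPM and Lamtor3 at 78.3, 35.3 and 36.4 CPM, above all WT mice (1.64 ± 0.42 and 1.33 ± 0.34, edgeR adjusted p = 0.00966 and 0.00995). Atp6v0e, Lamtor3 and Lamtor5 did not pass without treated mouse 10 or without WT mouse 3 (0.81 to 1.21, 0.77 to 1.54 and 1.11 to 1.83 over the 6 fits). Atp6v0e2, at 4.35, 3.74 and 1.93 CPM, overlapped with WT mice and passed in 2 of 6 such fits, those without WT mouse 2 or treated mouse 12 (1.07 ± 0.41, edgeR adjusted p = 0.0491, and 0.77 to 1.30 over the 6). Lamtor2 was at 51.2, 83.3 and 82.4 CPM, on both sides of the WT range. Macrophage markers were also above WT in these mice, at 888 to 2574 summed CPM (7 of 10 passing upwards).

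At 34-weeks, the treated mice were near WT mice. Of the 37 genes, 0 passed in either direction in edgeR (1, Atp6v0d2, at an unadjusted p under 0.05, and 0 with DESeq2), where 0.131% and 0.0894% of all genes passed upwards and downwards. The log2 fold changes ran from -0.62 (Atp6v0b) to 1.55 (Atp6v0d2), with a median of -0.10, and that of all genes was 0.00. Treated mice lay wholly above WT mice in 1 gene, Atp6v0d2, and wholly below in 1, Atp6v1a, against 4.81% and 4.11% of all genes. Atp6v0d2 was at 8.41, 3.72 and 2.76 CPM in treated mice 9, 11 and 12 and at 0.885 to 2.36 CPM in WT mice, a difference of 1.55 ± 0.46 (edgeR adjusted p = 0.404, and 0.92 to 1.88 with a mouse left out). Rragd was at 2.24, 1.75 and 1.40 CPM, overlapping with WT mice at 1.00 to 1.60 CPM (0.51 ± 0.42, edgeR adjusted p = 0.965). Tcirg1 was at 50.6, 37.1 and 47.8 CPM and Fnip2 at 25.5, 16.0 and 7.55 CPM, and each overlapped with WT mice. Atp6v0a1, at 52.1, 35.0 and 23.9 CPM, and Atp6v0b, at 44.3, 88.5 and 108 CPM, were no longer apart from WT mice. Tfeb, at 7.76, 10.0 and 8.71 CPM, Tfe3, at 22.5, 19.3 and 16.2 CPM, and Mitf, at 3.90, 3.44 and 3.70 CPM, overlapped with WT mice as well. In the same mice, 4 of 7 markers of lipid-associated macrophages were still above WT mice (224 to 402 summed CPM against 95.9 to 151), and 0 of 10 macrophage markers passed (373 to 925 summed CPM). With 3 mice a group, a gene that did not pass is not shown to be at the WT level.

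An interaction tested whether treated mice stood apart from WT mice by a different amount at each time. It passed for 9 of the 37 genes, where 19.6% of all genes passed. In 1 of them, Atp6v0a1, the value was positive (9.07% of all genes), and in 8, Atp6v0b, Atp6v1f, Lamtor5, Atp6v1g1, Lamtor3, Fnip1, Atp6v0e and Atp6v1e1, it was negative (10.5%), that is lower against WT mice at 34-weeks than at 12-weeks. WT mouse 1 of 34-weeks and treated mouse 9 of 34-weeks, whose length shifts were 0.67 and -0.72, take part in this test, and without either the count was 0. With the trend with length and GC content removed, Lamtor5, Atp6v1g1, Lamtor3, Atp6v0e and Atp6v1e1 no longer passed. Atp6v1a, Atp6v1b2, Atp6v1d, Mtor and Rptor newly passed.

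Against untreated Lipa-/- mice, the treated mice had lower values for most of the genes that had risen. At 12-weeks 18 of the 37 genes passed downwards and 2 upwards (30.4% and 23.8% of all genes), and at 34-weeks 17 downwards and 1 upwards (21.4% and 19.6%). Called lower were 11 and 12 genes (25.3% and 18.6% of all genes), and called higher 2 and 0 (16.2% and 12.9%). Every treated mouse was below every Lipa-/- mouse in 17 genes at 12-weeks (32.8% of all genes) and 26 at 34-weeks (28.5%), and above in 6 and 2 genes (26.5% and 27.4%). Since each comparison shares its mice with one against WT, the values are given side by side and no more is drawn from them. The log2 fold changes of treated against untreated mice at 34-weeks were -4.97 ± 0.44 for Rragd, -4.69 ± 0.48 for Atp6v0d2, -1.95 ± 0.38 for Fnip2, -1.79 ± 0.23 for Tcirg1 and -1.62 ± 0.18 for Atp6v1b2 (edgeR adjusted p = 5.51e-07, 1.94e-06, 0.000645, 1.52e-05 and 2.84e-06). The mice of these groups did not overlap in any of the 5 genes. Tfeb, called lower at 12-weeks (-2.42 ± 0.34, edgeR adjusted p = 4.1e-05), did not pass at 34-weeks (-0.73 ± 0.32, adjusted p = 0.0810). Length moved with this comparison too at 12-weeks, with medians of all genes of 0.44 in the shortest quartile and -0.52 in the longest. With the trend with length and GC content removed, 6 of the 37 genes passed upwards and 16 downwards at 12-weeks. Tfeb still passed there (-1.30), while Tfe3 moved from -1.33 to -0.14 and no longer passed. The gene that passed upwards at 34-weeks was Rptor (0.75 ± 0.21, edgeR adjusted p = 0.00942, lost without treated mouse 9), and those of 12-weeks were Atp6v0b (1.43, lost without treated mouse 10, Lipa-/- mouse 8 or Lipa-/- mouse 5) and Lamtor5 (1.51, lost without treated mouse 10).

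The shares of Atp6v0d2, Rragd and Fnip2 were lower in treated than in untreated Lipa-/- mice. Of subunit a, the share of Atp6v0a2 was higher, while those of Tcirg1 and Atp6v0a1 were not shown to differ. Atp6v0d2 supplied 9.73, 7.09 and 3.61% of subunit d in treated mice of 12-weeks and 9.63, 3.45 and 2.48% at 34-weeks. Its mean share differed by -39.6 percentage points from that of Lipa-/- mice and that of Rragd by -22.4 points (exact permutation p = 0.005 each, over both time points as above), and the share of Fnip2 by -30.6 points (exact p = 0.005). That of Atp6v0a2 differed by 6.44 points (exact permutation p = 0.005), that of Tcirg1 by -6.41 points (exact p = 0.14) and that of Atp6v0a1 by -0.089 points (exact p = 0.985). For Tcirg1 and Atp6v0a1 these values average differences of opposite sign. Against untreated Lipa-/- mice, Tcirg1 was at 3.06 points at 12-weeks and -15.9 at 34-weeks, and Atp6v0a1 at -7.92 and 7.74 points. Against WT mice, the share of Atp6v0d2 was higher by 4.73 points (exact permutation p = 0.01), that of Tcirg1 by 17.7 points (exact p = 0.025) and that of Rragd by 1.97 points (exact p = 0.07). The share of Atp6v0a2 differed from that of WT mice by -5.00 points (exact permutation p = 0.005). These p are not adjusted for the 15 shares tested, and in this comparison a p of 0.005, 0.01 or 0.025 does not set a share apart. The difference of Tcirg1 was 30.2 points at 12-weeks and 5.17 points at 34-weeks. At 12-weeks alone, Tcirg1 supplied 86.4% ± 4.73 of subunit a in treated mice and Atp6v0a1 5.60% ± 2.89, both further from the WT means than in untreated Lipa-/- mice. Fnip2 supplied 9.46, 12.2 and 10.5% of the Fnip transcripts in these mice, less than in any other mouse.

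Other genes of the pathway were read from lists, to be set against the shares of all genes given above. Of 11 regulators of V-ATPase assembly, 2 rose and 1 fell at 12-weeks and 2 rose and 2 fell at 34-weeks in Lipa-/- mice. Ncoa7, which binds the pump, was at 1.88 ± 0.36 and Tbc1d24 at 0.73 ± 0.23, while the assembly factor Vma21 was at -0.81 ± 0.21 and Oxr1 at -0.69 ± 0.21 on the log2 scale at 34-weeks. Of 20 genes of GATOR, KICSTOR and the amino acid sensors, which control the Rag GTPases, 1 rose and 4 fell at 12-weeks and 0 rose and 5 fell at 34-weeks. The largest falls of 34-weeks were those of Sar1b (-2.63 ± 0.44), a leucine sensor that also serves lipoprotein transport, of the GATOR1 subunit Nprl2 (-1.33 ± 0.21), of the KICSTOR subunit Kptn (-1.28 ± 0.24) and of the GATOR2 subunit Wdr24 (-0.81 ± 0.18). Of 11 genes of TSC, Rheb and mTORC1 partners, 1 rose and 0 fell at 12-weeks and 1 rose and 3 fell at 34-weeks. Rhebl1, a relative of the mTORC1 activator Rheb, was at 1.55 ± 0.50, and the mTOR inhibitor Deptor at -1.19 ± 0.46, the TSC subunit Tbc1d7 at -0.97 ± 0.26 and the mTORC1 subunit Mlst8 at -0.57 ± 0.21.

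Of 19 genes of lysosomal channels, transporters and TFEB control, 6 rose and 1 fell at each time. The calcium and sodium channel of endolysosomes Tpcn2 was at 3.19 ± 0.30 at 12-weeks and 3.08 ± 0.29 at 34-weeks, Tfec, the fourth relative of the MiT family, at 2.15 ± 0.45 and 1.71 ± 0.44, and the amino acid transporter Slc36a4 at 1.47 ± 0.33 and 1.47 ± 0.33. Gpr155, the lysosomal cholesterol sensor, fell (-1.67 ± 0.23 and -1.82 ± 0.23, edgeR adjusted p = 2.3e-05 and 7.57e-06). Among 29 TFEB targets of the CLEAR network, 20 rose and 0 fell at 12-weeks and 19 rose and 1, Gabarapl1, fell at 34-weeks, with medians of 1.09 and 1.12. The medians of the other 4 lists lay between -0.34 and 0.31 at both times, against 0.02 and -0.03 for all genes. Among the genes that rose at 34-weeks were Gpnmb (12.31 ± 1.02), which is also on the list of lipid-associated macrophages, Cd63 (6.28 ± 0.44) and Psap (2.85 ± 0.27), the precursor of saposins. The summed CPM of the 29 was 2964 to 3614 in WT, 12564 to 18975 in Lipa-/- and 4275 to 4877 in treated mice of 12-weeks, and 3697 to 3977, 13615 to 16341 and 3642 to 3887 at 34-weeks. In treated mice of 12-weeks 10 of the 29 passed upwards and 5 downwards against WT mice, with a median of -0.01. In treated mice of 34-weeks, 1 of the 29 passed against WT mice, Gpnmb (7.01 ± 0.86, edgeR adjusted p = 0.00147), and 0 genes of the other 4 lists did.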

How the data were processed

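Liver RNA of 18 mice was sequenced from paired ends after polyA selection with ERCC spike-ins. The authors quantified the reads with Salmon on Ensembl transcripts of GRCm39 and imported them per gene with tximport. They deposited a table of estimated counts per gene, with a row for the human transgene, and a table of TPM values, which are corrected for transcript length and sum to the same total in each mouse. The submitters' processing notes name R 4.3.0 and DESeq2 1.40.1. A further deposited table holds the authors' own fold changes and p-values between groups and was not used here.

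Estimated counts were rounded, and the 14535 genes whose reads over all 18 mice added up to more than 100, a minimum that the study uses, were fitted with edgeR 4.0.16 (R 4.3.3, TMM factors, quasi-likelihood test, a mean for each of the 6 groups, 12 residual degrees of freedom), with Benjamini-Hochberg adjustment over all genes. Nothing in the sources says more than that the 3 mice of a group are separate animals, so p-values measure the spread between these mice. Paralog shares were taken from TPM and compared by exact permutation tests. The threshold was an adjusted p under 0.05, and "called" adds an absolute log2 fold change over 1. The genes and the lists of markers and pathway genes were chosen with earlier results of these data known. Values per mouse are given for genes called in a comparison with WT mice, for Atp6v0d1, Flcn and Tfe3, and for the most abundant gene of each role in WT mice, and other genes were picked as examples after their values were seen.

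Alternatives were DESeq2 1.42.0, limma 3.58.1 on log2 of TPM plus 0.1 or 1, total count and upper quartile scaling, no filter, length offsets, 2-group fits, an adjusted p under 0.01, the mouse number as a block, and each mouse left out. Removal of a trend with transcript length and GC content was added after the data were seen. Mouse numbers were checked for pairing: deviations of same-numbered mice of the 2 time points correlated between -0.25 and 0.46, so the numbers do not pair the samples. In counts simulated for Lipa-/- against WT mice at 12-weeks over 13283 genes, edgeR recovered 75% of genes changed by 4-fold and 26% of those changed by 2-fold, with 6 false calls. DESeq2 recovered 90% and 46%, with 30 false calls. The simulation changed 100 genes by each fold, a far smaller share than passed in the data, so its recovery is not that of the data. Total reads per mouse were 17527848 to 25833134, which limits the precision of genes near 1 CPM. Promoter windows were taken from RefSeq (GRCm38.p6) and gene positions from GENCODE (GRCm39).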

Additional observations from a re-analysis of the deposited data

Results flagged for a closer look

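For 9 of the 37 genes, the difference between rAAV8-treated Lipa-/- and WT mice was not the same at 12- and 34-weeks, as tested by an interaction in edgeR over all genes. Of all genes, 19.6% passed this test. The values are the log2 difference at 34-weeks minus that at 12-weeks, so a negative value means that the gene stood higher against WT mice at 12-weeks. Atp6v0a1 had 2.68 ± 0.80 (standard error, edgeR adjusted p = 0.0328). The ring subunit Atp6v0b had -2.75 ± 0.66 and the V1 stalk subunit Atp6v1f had -2.34 ± 0.57 (edgeR adjusted p = 0.0242 and 0.0246). In Ragulator, Lamtor5 was at -2.18 ± 0.59 and Lamtor3 at -1.60 ± 0.48 (edgeR adjusted p = 0.0269 and 0.0348). Atp6v1g1 had -1.67 ± 0.49, Fnip1 had -1.26 ± 0.28, Atp6v0e had -1.20 ± 0.38 and Atp6v1e1 had -1.07 ± 0.31 (edgeR adjusted p = 0.0313, 0.0238, 0.0395 and 0.0299). The count of 9 was 0 without WT mouse 1 of 34-weeks, without treated mouse 9 of 34-weeks, without WT mouse 1 of 12-weeks or without WT mouse 3 of 12-weeks, 1 (Fnip1) without treated mouse 10 of 12-weeks and 4 without treated mouse 11 of 34-weeks. With the trend with length and GC content removed, Atp6v0e (-0.09), Atp6v1e1 (-0.42), Atp6v1g1 (-0.75), Lamtor3 (-0.76) and Lamtor5 (-0.82) no longer passed. Atp6v0a1, Atp6v0b, Atp6v1f and Fnip1 still did, and Atp6v1a, Atp6v1b2, Atp6v1d, Mtor and Rptor newly passed. Time and study code cannot be told apart in these values. With 3 mice in each group, single mice were not screened for outlying values.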

How the results depend on the processing

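Of 31 settings, 13 changed the processing and 18 left out a mouse. In Lipa-/- against WT mice, the number of genes passing upwards stayed within 1.5 times of 19 and 18 in every setting that applied except scaling by total counts (both times) and limma on TPM (34-weeks), which gave more. Of the counts, 340 stayed within 1.5 times of the values in the report and 122 moved. Of the values of single genes, shares and medians, 5509 stayed on their side of the threshold, 419 of them with a change of sign of a difference that passed in neither fit, 332 no longer passed, 228 newly passed, 38 changed sign with a pass in the report or in the alternative, and 61 medians and shares moved (medians by at least 0.2 on the log2 scale, shares by more than 1 SD). The cause of these moves was not tested. The shares moved only when CPM, which is not corrected for length, replaced TPM. Genes near 1 CPM in WT mice, such as Atp6v0d2, Rragd and Atp6v1g2, rest on few reads there, so the size of their folds is less precise than for abundant genes. With 3 mice a group, edgeR recovered 26% of 2-fold changes in simulated counts where far fewer genes changed than in the data. A gene that did not pass is not shown to be unchanged. The shares of paralogs could not fall below an exact p of 0.1 within 1 time point.

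The numbers of genes under each setting are followed by those of the report in parentheses. With scaling by total counts, Lipa-/- against WT at 12-weeks had 29 passing upwards (19), 0 passing downwards (2) and 24 called higher (14) and treated against WT at 12-weeks had 9 passing upwards (16), 5 called higher (9) and 6 called lower (2). Under the same setting, treated against Lipa-/- at 12-weeks had 0 passing upwards (2), 28 passing downwards (18), 0 called higher (2) and 22 called lower (11), Lipa-/- against WT at 34-weeks had 28 passing upwards (18), 0 passing downwards (2) and 26 called higher (13) and treated against Lipa-/- at 34-weeks had 0 passing upwards (1), 29 passing downwards (17) and 26 called lower (12). With an adjusted p under 0.01, Lipa-/- against WT at 12-weeks had 0 passing downwards (2) and treated against WT at 12-weeks had 8 passing upwards (16), 1 passing downwards (5) and 1 called lower (2). There, treated against Lipa-/- at 12-weeks had 1 passing upwards (2) and 1 called higher (2), Lipa-/- against WT at 34-weeks had 1 passing downwards (2) and the interaction of treatment and time had 0 passing (9). With no filter on low counts, Lipa-/- against WT at 12-weeks had 1 passing downwards (2) and treated against WT at 12-weeks had 10 passing upwards (16). Under the same setting, Lipa-/- against WT at 34-weeks had 1 passing downwards (2). With only the 2 groups in the fit, Lipa-/- against WT at 12-weeks had 1 passing downwards (2) and treated against WT at 12-weeks had 9 passing upwards (16). There, treated against Lipa-/- at 12-weeks had 5 passing upwards (2) and Lipa-/- against WT at 34-weeks had 1 passing downwards (2). With limma on log2(TPM + 1), Lipa-/- against WT at 12-weeks had 0 passing downwards (2) and 22 called higher (14) and treated against WT at 12-weeks had 4 passing upwards (16) and 2 called higher (9). Under the same setting, treated against Lipa-/- at 12-weeks had 0 passing upwards (2), 29 passing downwards (18), 0 called higher (2) and 24 called lower (11), Lipa-/- against WT at 34-weeks had 29 passing upwards (18), 0 passing downwards (2) and 26 called higher (13), treated against Lipa-/- at 34-weeks had 0 passing upwards (1), 29 passing downwards (17) and 26 called lower (12) and the interaction of treatment and time had 3 passing (9). With limma on log2(TPM + 0.1), Lipa-/- against WT at 12-weeks had 0 passing downwards (2) and 24 called higher (14) and treated against WT at 12-weeks had 5 passing upwards (16), 10 passing downwards (5), 3 called higher (9) and 7 called lower (2). There, treated against Lipa-/- at 12-weeks had 0 passing upwards (2), 29 passing downwards (18), 0 called higher (2) and 24 called lower (11), Lipa-/- against WT at 34-weeks had 28 passing upwards (18), 0 passing downwards (2) and 27 called higher (13) and treated against Lipa-/- at 34-weeks had 0 passing upwards (1), 28 passing downwards (17) and 26 called lower (12). With the length and GC trend removed, Lipa-/- against WT at 12-weeks had 4 passing downwards (2) and 1 called lower (0) and treated against WT at 12-weeks had 4 called higher (9). Under the same setting, treated against Lipa-/- at 12-weeks had 6 passing upwards (2), Lipa-/- against WT at 34-weeks had 4 passing downwards (2) and 2 called lower (0) and treated against Lipa-/- at 34-weeks had 4 passing upwards (1) and 1 called higher (0). With offsets for transcript length, treated against WT at 12-weeks had 3 passing downwards (5) and Lipa-/- against WT at 34-weeks had 1 called lower (0). There, treated against Lipa-/- at 34-weeks had 2 passing upwards (1). With DESeq2, treated against WT at 12-weeks had 1 called lower (2) and treated against Lipa-/- at 12-weeks had 4 passing upwards (2). Under the same setting, Lipa-/- against WT at 34-weeks had 1 passing downwards (2) and the interaction of treatment and time had 14 passing (9). With upper quartile scaling, Lipa-/- against WT at 34-weeks had 1 passing downwards (2).

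Leaving out each mouse in turn gave 0 to 2 genes passing downwards in Lipa-/- against WT at 12-weeks and 1 to 2 at 34-weeks, 6 to 15 passing upwards, 1 to 4 passing downwards, 4 to 10 called higher and 1 to 3 called lower in treated against WT at 12-weeks, 0 to 3 passing upwards and 0 to 3 called higher in treated against Lipa-/- at 12-weeks, 0 to 1 passing upwards in treated against Lipa-/- at 34-weeks, and 0 to 12 for the interaction of treatment and time. In Lipa-/- against WT at 12-weeks the count passing downwards was 0 without Lipa-/- mouse 5 and 1 without Lipa-/- mouse 9 or any WT mouse, and at 34-weeks it was 1 without WT mouse 2 or 3 or any Lipa-/- mouse. Where a fit left out a mouse, the remaining 2 mice of its group shared the spread estimated over all groups.

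The mouse numbers do not pair the samples (correlations of deviations from -0.25 to 0.46). The mouse number could be fitted as a replicate block only for treated against Lipa-/- mice and for the interactions, since the other contrasts are tied to the numbers. With the mouse number as a replicate block, treated against Lipa-/- at 12-weeks had 0 passing upwards (2), 1 passing downwards (18), 0 called higher (2) and 1 called lower (11) and treated against Lipa-/- at 34-weeks had 0 passing upwards (1), 4 passing downwards (17) and 4 called lower (12). There, the interaction of treatment and time had 0 passing (9).

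Log2 fold changes that passed in the report or under the alternative changed sign as follows, and of these the values in the report had passed for Atp6v0a2, Atp6v1a, Atp6v1b2, Atp6ap2 and Rragc in treated against WT mice and for Flcn, Atp6v0b, Lamtor5 and Slc38a9 in treated against Lipa-/- mice. Scaling by total counts brought Lamtor4 to -0.80, Rraga to -0.60, Fnip1 to -0.66 and Mtor to -0.86 (treated against Lipa-/- at 12-weeks) and Lamtor1 to 0.67 (Lipa-/- against WT at 34-weeks). Limma on log2(TPM + 1) brought Atp6v1a to -0.069, Atp6v1b2 to -0.088, Atp6ap2 to -0.16 and Rragc to -0.17 (treated against WT at 12-weeks), Lamtor1 to -0.64, Lamtor3 to -0.76, Lamtor4 to -1.09, Rraga to -0.78, Fnip1 to -0.76 and Mtor to -0.74 (treated against Lipa-/- at 12-weeks) and Lamtor1 to 0.74 (Lipa-/- against WT at 34-weeks). Limma on log2(TPM + 0.1) brought Atp6v1a to -0.078, Atp6v1b2 to -0.096, Atp6ap2 to -0.17 and Rragc to -0.18 (treated against WT at 12-weeks), Lamtor1 to -0.65, Lamtor3 to -0.78, Lamtor4 to -1.10, Rraga to -0.81, Fnip1 to -0.89 and Mtor to -0.91 (treated against Lipa-/- at 12-weeks) and Lamtor1 to 0.75 (Lipa-/- against WT at 34-weeks). Offsets for transcript length brought Slc38a9 to 0.18 (treated against Lipa-/- at 12-weeks). The length and GC trend removed brought Atp6v0a2 to 0.0022, Lamtor2 to -0.69, Mtor to 0.77 and Rptor to 0.77 (treated against WT at 12-weeks), Atp6v0a2 to 0.55 and Flcn to 0.094 (treated against Lipa-/- at 12-weeks) and Rptor to -1.16 (the interaction of treatment and time). The mouse number as a replicate block brought Atp6v0b to -0.68, Lamtor5 to -0.11 and Slc38a9 to 0.47 (treated against Lipa-/- at 12-weeks).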
